A study of Mus musculus with 8 samples.

Results

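The 10 genes described here are NRF2 (gene symbol Nfe2l2), its inhibitor Keap1, and 8 antioxidant genes: Nqo1, Hmox1, Gclc, Gclm, Txnrd1, Srxn1, Cat and Sod2. They were chosen by symbol from a table of 21532 genes, and all 10 were found. The table holds liver RNA-Seq from 8 male db/db mice, of which 4 received control and 4 received AF1 peptide, a peptide derived from the estrogen receptor ERα. All 8 mice carry the db/db genotype, a defect of the leptin receptor that leads to obesity and diabetes, so no lean liver was compared. The db/db mice were 8 weeks old when treatment started, and control or AF1 peptide was injected at 5 mg/kg, 2 times per week over 5 weeks. The comparison addresses whether AF1 peptide treatment altered the antioxidant response at the mRNA level in these livers.

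NRF2 is a transcription factor that is held at a low protein level by KEAP1, an adaptor that delivers it to a CUL3 ubiquitin ligase. Oxidants and electrophiles modify KEAP1, NRF2 then accumulates and pairs with small MAF proteins, and the pair binds antioxidant response elements in the DNA of target genes. The liver is a main site of this response, because it detoxifies drugs and handles a large oxidative load. NRF2 is regulated mostly through the stability of its protein, which RNA-Seq does not measure.

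The antioxidant response element has the core TGACNNNGC, and the related TGAGNNNGC is also bound by NRF2 in many genes. Both cores were searched on both strands of promoter windows that span 250 bases before to 50 bases after a RefSeq transcription start (GRCm38.p6). Windows were present for 8 of the 10 genes, Hmox1 and Gclc being the others. In total 10 windows were searched, of which 3 belong to Txnrd1. Matches were found in the windows of 4 genes: Nfe2l2, Srxn1, Gclm and 1 of the 3 windows of Txnrd1. The background for this count is high, since 27.8% of all 32851 mouse windows hold at least 1 of the cores (12.4% hold TGACNNNGC and 17.6% hold TGAGNNNGC). The stretches around the upstream matches are printed because these genes include the regulator itself and Gclm, the gene with the smallest p of the 10. Each runs 5′ to 3′ on the strand of the gene, and capitals mark the match, which reads in reverse complement where it begins with GC.
Nfe2l2: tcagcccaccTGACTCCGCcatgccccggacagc
Srxn1: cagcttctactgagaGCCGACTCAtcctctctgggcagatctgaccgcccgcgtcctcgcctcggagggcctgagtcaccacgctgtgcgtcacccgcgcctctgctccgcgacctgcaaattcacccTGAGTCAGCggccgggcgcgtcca
Gclm: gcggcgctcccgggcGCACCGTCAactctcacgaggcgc
Txnrd1: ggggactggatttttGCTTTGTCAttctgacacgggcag

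The Nfe2l2 stretch is chr2:75704880-75704913 on the minus strand, with a TGACNNNGC match from base -240 to base -232 before the start. The Srxn1 stretch is chr2:152105351-152105502 on the plus strand, and holds TGAGNNNGC matches at -158 to -150 and at -45 to -37. Srxn1 was the gene with most matches, 3, since a TGACNNNGC match also lies at bases 29 to 37 after the start. The Gclm stretch is chr3:122245408-122245446 on the plus strand, and its match lies at -134 to -126. The Txnrd1 stretch is chr10:82859099-82859137 on the plus strand, and its match lies at -92 to -84. The windows of Cat, Nqo1, Keap1 and Sod2 do not contain these letters, and bases outside the windows were not searched. A match is a description of the letters in a window, and binding was not measured here.

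Between 35260283 and 45117528 reads were assigned to genes in the control livers, and between 23031880 and 43978158 in the AF1 peptide livers. The deposited values are normalized counts, in which the reads of a library are all divided by 1 size factor. AF1 peptide replicate 1 stood apart from the other 7 libraries on the first principal component, which held 39.3% of the variance, at -74.25 against -2.33 to 21.8. In this mouse the summed level of 12 macrophage and Kupffer cell markers was 3725, against 8409 to 10399 in the control mice and 8999 to 10053 in the other AF1 peptide mice. Hepatocyte markers were abundant in all 8 libraries, and the sum of 9 of them was 1871520 in this mouse and 2210655 to 2710200 in the other 7. That sum was mostly Alb, 1224160 in this mouse, and the 9 markers were split. Alb, Apoa1, Apob and Ttr were lowest of the 8 libraries in this mouse, while Serpina1c, Fgb, Cps1, Hnf4a and Cyp2e1 were highest. For this reason results are given with and without AF1 peptide replicate 1. In bulk liver, fewer cells of a type and less RNA per cell cannot be told apart.

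AF1 peptide treatment was not accompanied by a change in the NRF2 genes that passed correction for multiple testing. All 10 genes had a fold change below 0 on the log2 scale, with a median of -0.15, where 51.8% of the 15989 genes tested were below 0 and the median of all genes was -0.0083. The largest differences were in the glutathione synthesis genes Gclc and Gclm, in Hmox1 and in Srxn1, with log2 fold changes from -0.42 to -0.30. Nfe2l2, Keap1 and Sod2 had log2 fold changes of -0.02, -0.01 and -0.02. With AF1 peptide replicate 1 left out, 9 of the 10 were below 0 and the median was -0.10.

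A gene was called where its unadjusted p was under 0.05 and it differed by over 1.3-fold (0.38 on the log2 scale), using limma on log2(normalized count + 1). None of the 10 genes was called in either direction. Over the whole table, 1.9% of genes were called lower and 1.79% were called higher with AF1 peptide. When AF1 peptide replicate 1 was left out, the calls were 3.04% lower and 2.86% higher, and again none of the 10 was called. At an unadjusted p under 0.05 with any fold, 1 of the 10 genes passed, Gclm, in the lower direction, where 3.03% of all genes passed as lower and 3.16% as higher. None of the 10 had groups that did not overlap, a pattern found in the lower direction in 1.85% of genes and in the higher direction in 2.05%. After Benjamini-Hochberg adjustment in limma, no gene in the table reached an adjusted p under 0.05, although 990 had an unadjusted p under 0.05. The smallest adjusted p in the table was 0.763. With edgeR on the recovered reads no gene passed adjustment either, and with DESeq2 3 genes did, none of them among the 10.

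**Figure D1:**
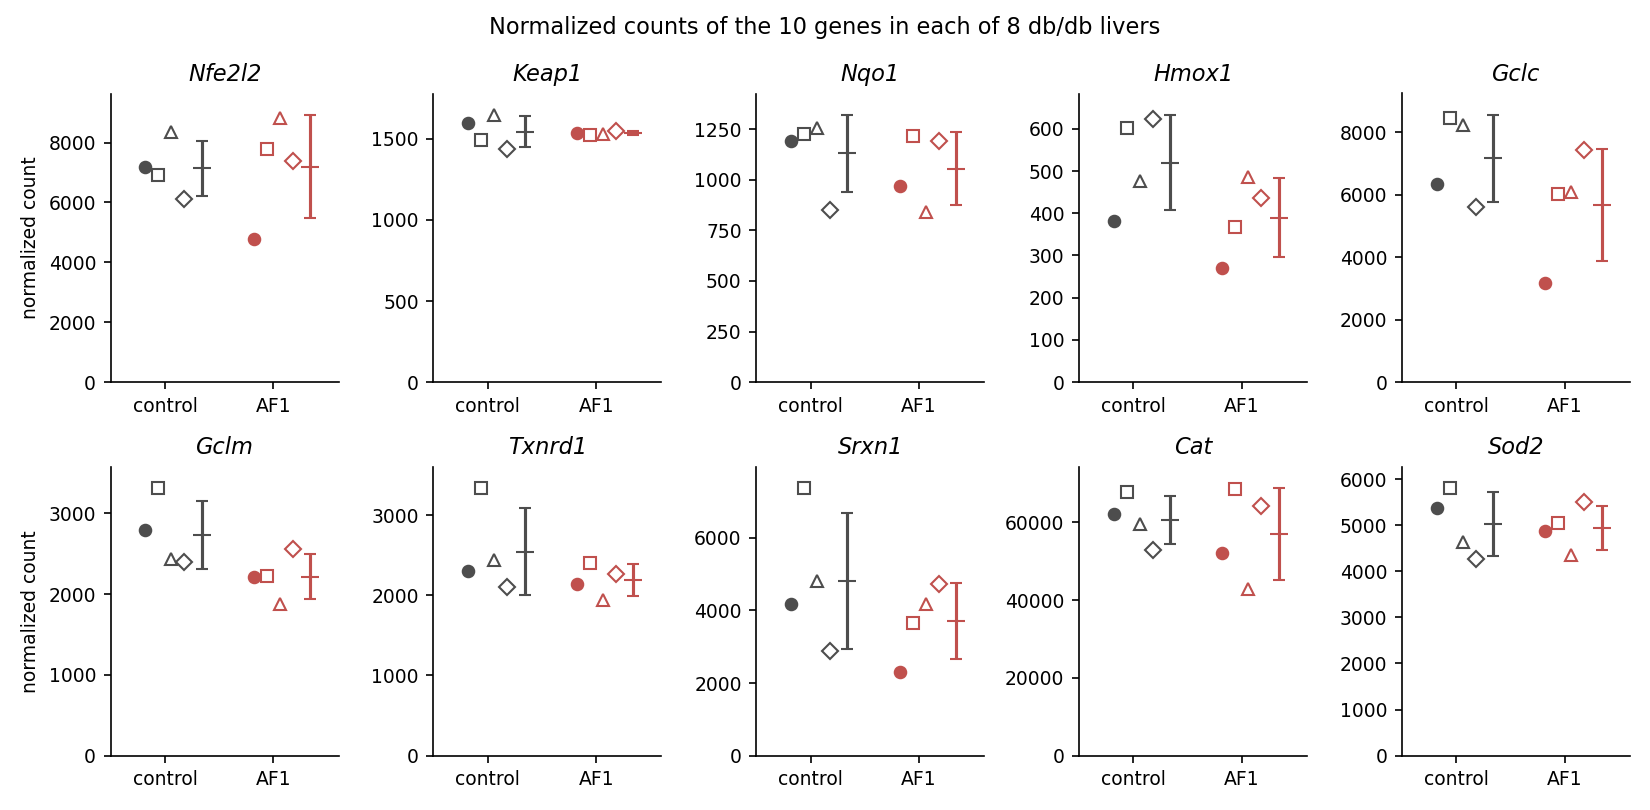
Normalized counts (linear axis from 0) of each of the 10 genes in the 4 control mice (grey) and the 4 AF1 peptide mice (red). Circles are replicate 1, squares replicate 2, triangles replicate 3 and diamonds replicate 4, and the bars are mean ± SD. The groups overlap in every gene, and AF1 peptide replicate 1 (filled red circle) is the lowest of 8 in Nfe2l2, Hmox1, Gclc and Srxn1. Over all tested genes, that mouse is the lowest of 8 in 23.4% and the highest in 25.9%. AF1 peptide replicate 3 (red triangle) is the lowest of 8 in Nqo1, Gclm, Txnrd1 and Cat, and in 17.9% of all tested genes.

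The regulators are described first. Nfe2l2, which encodes NRF2, had normalized counts of 7196, 6910, 8337 and 6118 in control replicates 1 to 4 and 4770, 7795, 8826 and 7395 in AF1 peptide replicates 1 to 4. AF1 peptide replicate 1 was the lowest and AF1 peptide replicate 3 the highest of all 8 mice, so the groups overlapped on both sides. The means were 7140 ± 919 and 7197 ± 1726 (SD, n = 4 each). The log2 fold change was -0.02 (SE 0.18, 95% interval -0.42 to 0.39, limma adjusted p = 0.99). The sign of so small a difference was not stable. Leaving out AF1 peptide replicate 1 gave an AF1 peptide mean of 8006 ± 738 and a log2 fold change of 0.17 (limma unadjusted p = 0.191), leaving out control replicate 3 gave 0.06, and edgeR and DESeq2 on the reads of all 8 mice gave 0.01.

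Keap1, the inhibitor of NRF2, was the steadiest of the 10 genes. Its normalized counts were 1598, 1495, 1647 and 1437 in the control mice and 1535, 1523, 1527 and 1549 in the AF1 peptide mice, which all lay within the control range. The means were 1544 ± 95.6 and 1534 ± 11.4, and the log2 fold change was -0.01 (95% interval -0.19 to 0.18, limma adjusted p = 0.989). That interval corresponds to a ratio between 0.875 and 1.13. The ratio of Nfe2l2 to Keap1 was 4.61 ± 0.336 in control and 4.69 ± 1.14 in AF1 peptide mice (two-sided exact permutation p = 1, n = 4 each). Keap1 overlaps a gene on the other strand, and the strand setting of the counting is not given in the sources used here.

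Hmox1 encodes heme oxygenase 1, the inducible enzyme that breaks down heme. Its normalized counts were 381, 601, 476 and 622 in the control mice and 270, 367, 486 and 435 in the AF1 peptide mice. AF1 peptide replicates 1 and 2 were below all control mice, and all 4 were below the control mean. The mean was 520 ± 113 in control and 390 ± 93.6 in AF1 peptide livers. This was the largest difference among the 10 genes, with a log2 fold change of -0.42 (SE 0.21, 95% interval -0.88 to 0.03). With all 8 mice it did not pass the test (limma unadjusted p = 0.0668, adjusted p = 0.763). In the other 3 AF1 peptide mice the mean was 429 ± 59.7, and without replicate 1 the log2 fold change was -0.26. This was 1 end of the range with 1 mouse left out, -0.56 to -0.26. Hmox1 was called lower without control replicate 1 (-0.56, limma unadjusted p = 0.0208) and without AF1 peptide replicate 3 (-0.54, limma unadjusted p = 0.0289).

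Hmox1 is also expressed by macrophages that take up red blood cells, and the markers of these cells were not even between the mice. The mouse with the lowest Hmox1, AF1 peptide replicate 1, also had the lowest macrophage marker sum (3725) and the lowest red blood cell marker sum (27116). Control replicate 4, with the highest Hmox1, had the highest macrophage marker sum, 10399, and the highest red blood cell marker sum, 123405. The red blood cell marker sums were 34152 to 44645 in the other control mice and 49150 to 51938 in the other AF1 peptide mice. The mice next in Hmox1 did not keep this order for red blood cell markers. Control replicate 2 (Hmox1 601) had a sum of 44645, and AF1 peptide replicate 2 (Hmox1 367) had 49150. Their macrophage marker sums, 9632 and 8999, were in the order of Hmox1. That order was not kept throughout, as control replicate 1 (Hmox1 381) had a macrophage marker sum of 8409. Of the 12 macrophage markers, 10 had a fold change below 0, with a median log2 fold change of -0.30, and Adgre1, a surface receptor of macrophages, was called lower (68.4 ± 18.7 against 42.9 ± 10.7, log2 fold change -0.66, limma unadjusted p = 0.0339). Without AF1 peptide replicate 1, 6 of the 12 were below 0, the median was 0.02, and Adgre1 was not called. The part of these markers in the Hmox1 values was not tested.

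Gclc and Gclm encode the catalytic and the modifier subunit of glutamate-cysteine ligase, the rate-limiting enzyme of glutathione synthesis. Gclm had normalized counts of 2797, 3310, 2433 and 2403 in the control mice and 2213, 2225, 1874 and 2562 in the AF1 peptide mice. AF1 peptide replicates 1, 2 and 3 were below all 4 control mice, and replicate 4 lay within their range. The means were 2736 ± 423 and 2219 ± 281, a ratio of 0.813 (95% interval 0.664 to 0.996). The log2 fold change of -0.30 (SE 0.13) had an unadjusted p of 0.0465 and an adjusted p of 0.763 in limma with Benjamini-Hochberg adjustment. The exact permutation test over mice gave a two-sided p of 0.0857, where the smallest p that 4 against 4 allows is 0.0286. Without AF1 peptide replicate 1 the log2 fold change stayed at -0.30, with a limma unadjusted p of 0.0512. In the GRCm38 annotation, 3.92% of the 50-base words of Gclm also occur in other genes, Ppia among them, and Gclm overlaps Gm6061, whose means were 2160 in control and 1858 in AF1 peptide mice, so a part of its reads may be uncertain.

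Gclc had normalized counts of 6344, 8451, 8227 and 5619 in the control mice and 3162, 6013, 6086 and 7436 in the AF1 peptide mice. AF1 peptide replicate 1 was far below the rest, and the other 3 lay within the control range. The means were 7160 ± 1396 and 5674 ± 1798, with a log2 fold change of -0.38 (SE 0.25, 95% interval -0.93 to 0.16, limma adjusted p = 0.779). Without AF1 peptide replicate 1 the mean of the AF1 peptide mice was 6512 ± 801 and the log2 fold change was -0.12. The ratio of Gclc to Gclm was 2.64 ± 0.512 in control mice and 2.57 ± 0.794 in AF1 peptide mice (two-sided exact permutation p = 0.857, n = 4 each), with the lowest ratio, 1.43, in AF1 peptide replicate 1.

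Txnrd1 and Srxn1 act on oxidized protein thiols. Txnrd1 encodes the cytosolic thioredoxin reductase, which uses NADPH to keep thioredoxin reduced. Its normalized counts were 2307, 3334, 2435 and 2100 in control and 2143, 2407, 1943 and 2268 in AF1 peptide mice. Control replicate 2 was highest, and only AF1 peptide replicate 3 was below all control mice. The means were 2544 ± 544 and 2191 ± 197, and the log2 fold change of -0.20 (95% interval -0.51 to 0.12, limma adjusted p = 0.793) was -0.06 without control replicate 2. Txnrd1 overlaps other genes, of which Gm38560 lies on the opposite strand and had means of 32.3 and 37.3.

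Srxn1 encodes sulfiredoxin, which restores overoxidized peroxiredoxins. Its normalized counts were 4182, 7358, 4819 and 2870 in control and 2298, 3662, 4171 and 4736 in AF1 peptide mice. It was the most variable of the 10 genes, with a 3.2-fold range over the 8 mice and a coefficient of variation of 39.2% in control and 28% in AF1 peptide livers. The means were 4807 ± 1884 and 3717 ± 1042, and the difference was within this spread (log2 fold change -0.34, SE 0.29, 95% interval -0.97 to 0.29, limma adjusted p = 0.824). With 1 mouse left out it ranged from -0.56 without control replicate 4 (limma unadjusted p = 0.0644) to -0.11 without control replicate 2, and it was -0.12 without AF1 peptide replicate 1.

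Nqo1 encodes a quinone reductase that is widely used as a readout of NRF2 activity. Its normalized counts were 1190, 1228, 1257 and 849 in the control mice and 970, 1215, 841 and 1194 in the AF1 peptide mice. Control replicate 4 and AF1 peptide replicate 3 were the 2 lowest of the 8. The means were 1131 ± 190 and 1055 ± 180 (log2 fold change -0.10, 95% interval -0.45 to 0.25, limma adjusted p = 0.907).

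Cat and Sod2 are antioxidant enzymes that depend less on NRF2. Cat encodes catalase, the peroxisomal enzyme that degrades hydrogen peroxide, and had normalized counts of 62217, 67840, 59664 and 52860 in control and 52124, 68682, 42814 and 64326 in AF1 peptide mice. The highest and the lowest of the 8 mice were both in the AF1 peptide group. The means were 60645 ± 6213 and 56987 ± 11764 (log2 fold change -0.11, 95% interval -0.54 to 0.32, limma adjusted p = 0.917). Sod2 encodes the mitochondrial manganese superoxide dismutase, and had normalized counts of 5375, 5797, 4643 and 4260 in control and 4862, 5036, 4346 and 5491 in AF1 peptide mice. All 4 AF1 peptide mice were within the control range, with means of 5019 ± 695 and 4934 ± 473 (log2 fold change -0.02, 95% interval -0.29 to 0.25, limma adjusted p = 0.982). In the annotation, 21.04% of the 50-base words of Sod2 also occur in other genes.

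**Figure D2:**
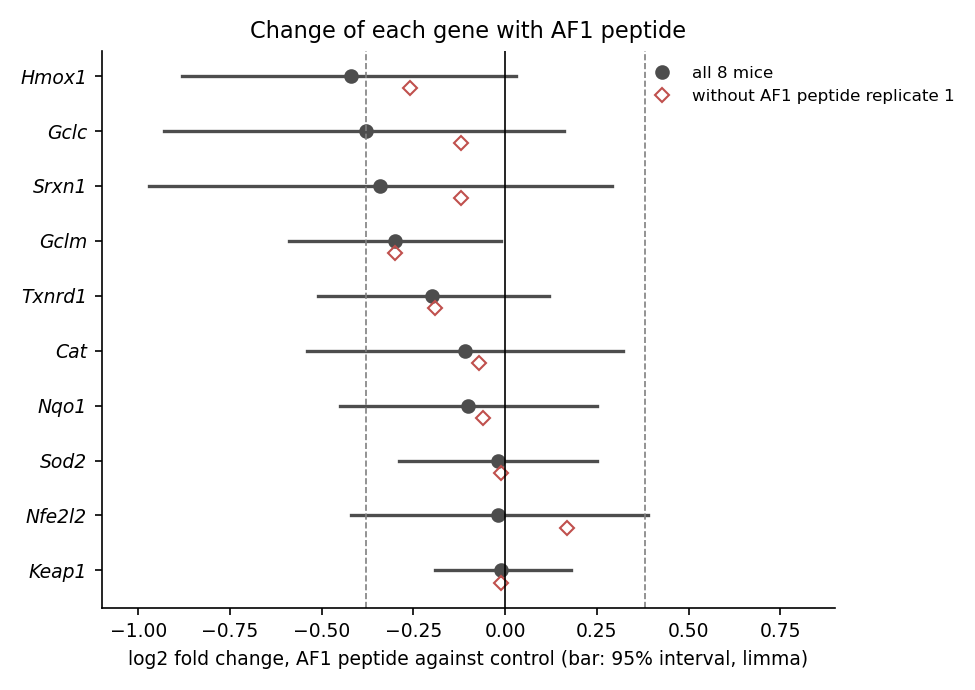
Log2 fold change of AF1 peptide against control for each gene (grey circles) with its 95% interval from limma over all 8 mice, and the log2 fold change without AF1 peptide replicate 1 (open red diamonds). Dashed lines mark 1.3-fold. The interval of Gclm alone ends below 0, and Nfe2l2, Hmox1, Gclc and Srxn1 move to the right without that mouse.

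The intervals show which sizes of change the data allow with 4 mice per group. For Keap1 a change of more than 1.3-fold in either direction lay outside the 95% interval, and for Sod2 too (ratio 0.816 to 1.19). For Gclc the interval ran from a ratio of 0.526 to 1.12, and for Srxn1 from 0.51 to 1.23. Each held no change as well as reductions down to its low end. The fewest reads behind a value were 201, for Hmox1, and each of the other 9 genes had at least 665 reads in every mouse. Counting error was therefore small beside the spread between mice for 9 of the 10 genes. Keap1 was the exception in the AF1 peptide group, where its coefficient of variation of 0.746% was below the 2.71% that counting alone gives.

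Catalase was the most abundant of the 10 mRNAs. Levels are given per kilobase of the longest principal transcript in the annotation, while reads were counted per gene. All exons together are longer, 10.008 kb against 5.861 kb for Sod2, so the order may depend on this choice, which the SDs do not cover. On this scale catalase in control livers was at 23209 ± 2378 normalized counts. Nfe2l2 (2885 ± 371), Gclc (2092 ± 408) and Srxn1 (1710 ± 670) followed. Sod2 (856 ± 119), Nqo1 (728 ± 122) and Txnrd1 (721 ± 154) came next on this scale. Gclm (489 ± 75.6), Keap1 (427 ± 26.5) and Hmox1 (331 ± 72) were lowest. Within this order the mean ± SD ranges overlapped between Gclc and Srxn1, among Sod2, Nqo1 and Txnrd1, between Gclm and Keap1, and between Keap1 and Hmox1. In AF1 peptide livers the level per kilobase was 21809 for Cat, 2908 for Nfe2l2, 1658 for Gclc, 397 for Gclm and 248 for Hmox1.

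Most pairs of the 10 genes were positively correlated across mice, but few passed adjustment. With 8 mice, a pair that did not pass was not shown to vary apart. The share of positive pairs among other genes was not computed. Over the 45 pairs of genes, 39 had a positive Pearson r of log2(normalized count + 1) across the 8 mice, and none of the 45 had an adjusted p under 0.05 for Pearson r (exact permutation, Benjamini-Hochberg over the 45 pairs). For Spearman's rho 2 pairs did. Gclc and Srxn1 placed the 8 mice in the same order, with rho = 1.00 (two-sided exact permutation p = 5e-05, the smallest that 8 mice allow, adjusted p = 0.00223) and r = 0.89 (exact permutation p = 0.00236, adjusted p = 0.106). Leaving out the 2 mice farthest from the median of Gclc, control replicate 2 and AF1 peptide replicate 1, gave r = 0.84. Nqo1 and Txnrd1 had rho = 0.95 (exact permutation p = 0.00114, adjusted p = 0.0257) and r = 0.68 (exact permutation p = 0.0407, adjusted p = 0.184), and r was 0.49 without the 2 mice farthest from the median of Nqo1, control replicate 4 and AF1 peptide replicate 3.

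Many other genes followed Gclc more closely than Srxn1 did by Pearson r, but none could by rank order. Srxn1 placed the mice in the same order as Gclc (rho = 1.00). The count of tested genes other than Gclc in that order was 3, Srxn1 included, so this order was not particular to Srxn1. By Pearson r with Gclc, Srxn1 ranked 229 among all other genes tested, and Mfhas1 was the closest, with r = 0.99. This ranking was made after the values were seen. The subunits of glutamate-cysteine ligase, Gclc and Gclm, had r = 0.49 (exact permutation p = 0.222, adjusted p = 0.434) and rho = 0.74 (exact permutation p = 0.0458, adjusted p = 0.24), and r = 0.31 without the 2 farthest mice. Nfe2l2 and its readout gene Nqo1 had r = 0.26 (exact permutation p = 0.55, adjusted p = 0.75) and rho = 0.17 (exact permutation p = 0.703, adjusted p = 0.868). Their r was 0.83 without AF1 peptide replicates 1 and 3 and 0.10 without AF1 peptide replicate 1 alone, so the relation rested on single mice. Within a group of 4 mice no correlation was computed.

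**Figure D3:**
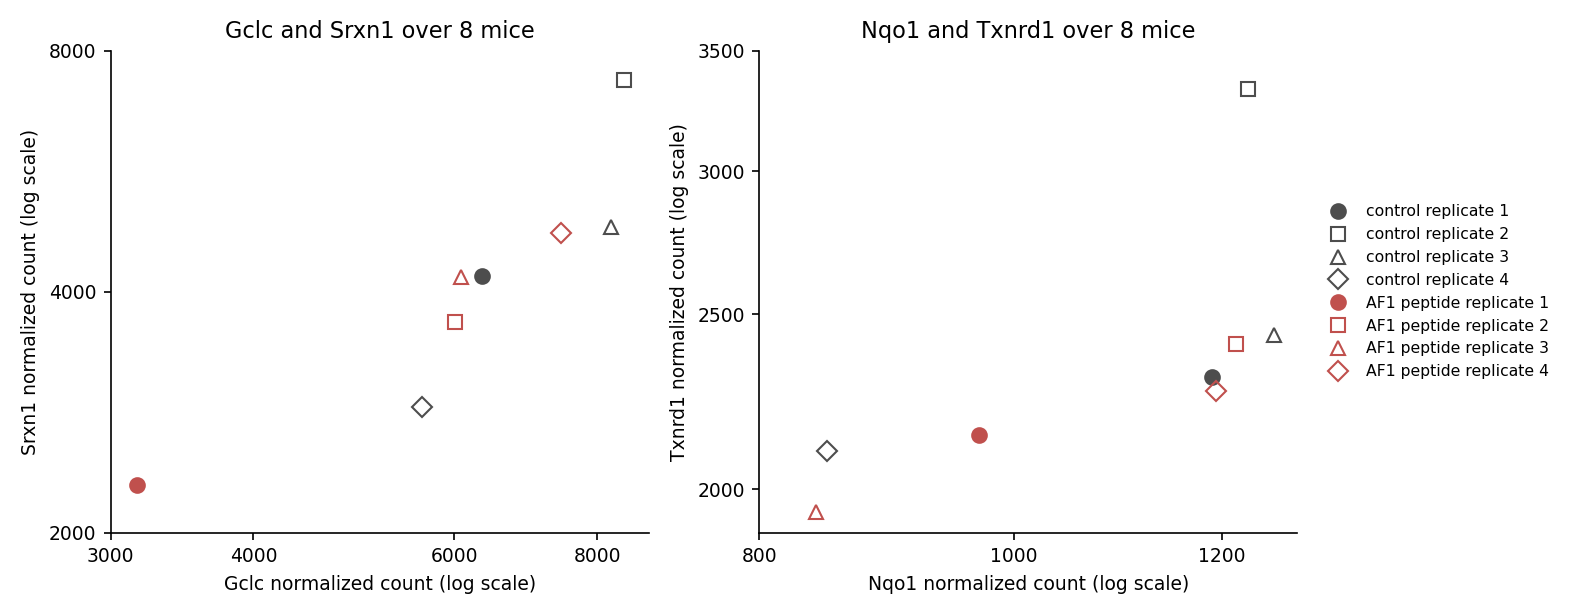
Normalized counts (log scales) of Srxn1 against Gclc and of Txnrd1 against Nqo1 in each of the 8 mice, grey for control and red for AF1 peptide, with a symbol per replicate. The order of the mice is the same for Gclc and Srxn1, with AF1 peptide replicate 1 lowest and control replicate 2 highest in both.

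The other regulators of NRF2 were described next, in a list of 19 genes of which 18 were tested. Of these, 10 had a fold change below 0 and 8 above, the median log2 fold change was -0.04, and none was called. Leaving out AF1 peptide replicate 1 gave 9 below 0, a median of 0.01 and no call. Cul3 then had a log2 fold change of -0.35 (limma unadjusted p = 0.00808), short of 1.3-fold. With all 8 mice its log2 fold change was -0.16 (limma unadjusted p = 0.4). Cul3 is named after its value was seen. Ppp2ca, the catalytic subunit of protein phosphatase 2A, had means of 2171 ± 176 in control and 1796 ± 256 in AF1 peptide livers. The 2 groups of mice did not overlap for this gene (log2 fold change -0.28, limma unadjusted p = 0.0422, adjusted p = 0.763). Syvn1, the ubiquitin ligase HRD1 that can also target NRF2, had means of 1836 ± 70 and 2156 ± 319 (log2 fold change 0.22, limma unadjusted p = 0.0799). Mafk, a small MAF partner of NRF2, had means of 768 ± 87.9 and 672 ± 45.1 (log2 fold change -0.19, limma unadjusted p = 0.111).

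A wider list of 36 other NRF2 target genes covered glutathione transferases, NADPH-producing enzymes, transporters and ferritins, and 34 were tested. In this list 26 had a fold change below 0 and 8 above, with a median log2 fold change of -0.13, and none was called or had an unadjusted p under 0.05. Without AF1 peptide replicate 1, 23 of the 34 were below 0, the median was -0.07 and 1 was called, in the higher direction. Slc7a11, the cystine transporter, and Gpx2 were too low to be tested. Glutathione transferase genes have near-identical copies, so their separate values are uncertain.

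Me1, the malic enzyme that makes NADPH, had the largest difference in this list. Its normalized counts were 11195, 12009, 7370 and 6936 in control and 2871, 7048, 7089 and 7772 in AF1 peptide mice, with AF1 peptide replicate 1 far below the rest. The log2 fold change was -0.66 (SE 0.31, limma unadjusted p = 0.0606, adjusted p = 0.763) with all mice and -0.32 without that mouse. Pgd, an NADPH-producing enzyme of the pentose phosphate pathway, was alike in this respect, with 1386 in AF1 peptide replicate 1 and 2582 to 4036 in the other 7 mice, and a log2 fold change of -0.40 with all mice and -0.13 without it. Osgin1, an oxidative stress induced growth inhibitor, lay in the other direction, with 2232, 3927, 3559 and 3209 in control and 3086, 5189, 5160 and 4144 in AF1 peptide mice. Its log2 fold change was 0.44 (SE 0.21, limma unadjusted p = 0.0559, adjusted p = 0.763), and 0.60 without AF1 peptide replicate 1 (unadjusted p = 0.00473), the 1 gene of the list called there.

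Antioxidant enzymes outside these lists also had small differences. Of 31 tested genes among 32 listed, 21 had a fold change below 0 and 10 above, with a median of -0.09, and none was called. Leaving out AF1 peptide replicate 1 gave 23 below 0, a median of -0.08 and 1 call. Prdx3, the mitochondrial peroxiredoxin, had means of 2835 ± 486 and 2234 ± 234 (log2 fold change -0.33, limma unadjusted p = 0.032, adjusted p = 0.763). It was the gene called there, in the lower direction (log2 fold change -0.38, limma unadjusted p = 0.0162). Oplah, the 5-oxoprolinase of glutathione turnover, had means of 2606 ± 197 and 3072 ± 260 (log2 fold change 0.24, limma unadjusted p = 0.0367). Txnrd2, the mitochondrial thioredoxin reductase, had means of 1179 ± 102 and 1375 ± 133 (log2 fold change 0.22, limma unadjusted p = 0.0597), on the other side of 0 from its cytosolic counterpart Txnrd1. The difference between the 2 reductases was not tested.

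Of 16 genes of heme and iron handling, all tested, 11 had a fold change below 0 and 5 above, with a median of -0.04, and none was called or had an unadjusted p under 0.05. The 3 with the smallest p were the iron exporter Slc40a1 (1691 ± 261 against 1483 ± 192, log2 fold change -0.18), the transferrin receptor Tfrc (438 ± 103 against 371 ± 94.7, -0.24) and Spic, a transcription factor of iron-recycling macrophages (74.8 ± 14.5 against 64.7 ± 16.9, -0.23). After leaving out AF1 peptide replicate 1, Tfrc was called lower (log2 fold change -0.40) and Cd163, a macrophage receptor for hemoglobin, was called higher (0.54). Cd163 is named after its value was seen. This list shares Blvrb, Fth1, Ftl1 and Slc48a1 with the wider NRF2 target list.

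**Figure D4:**
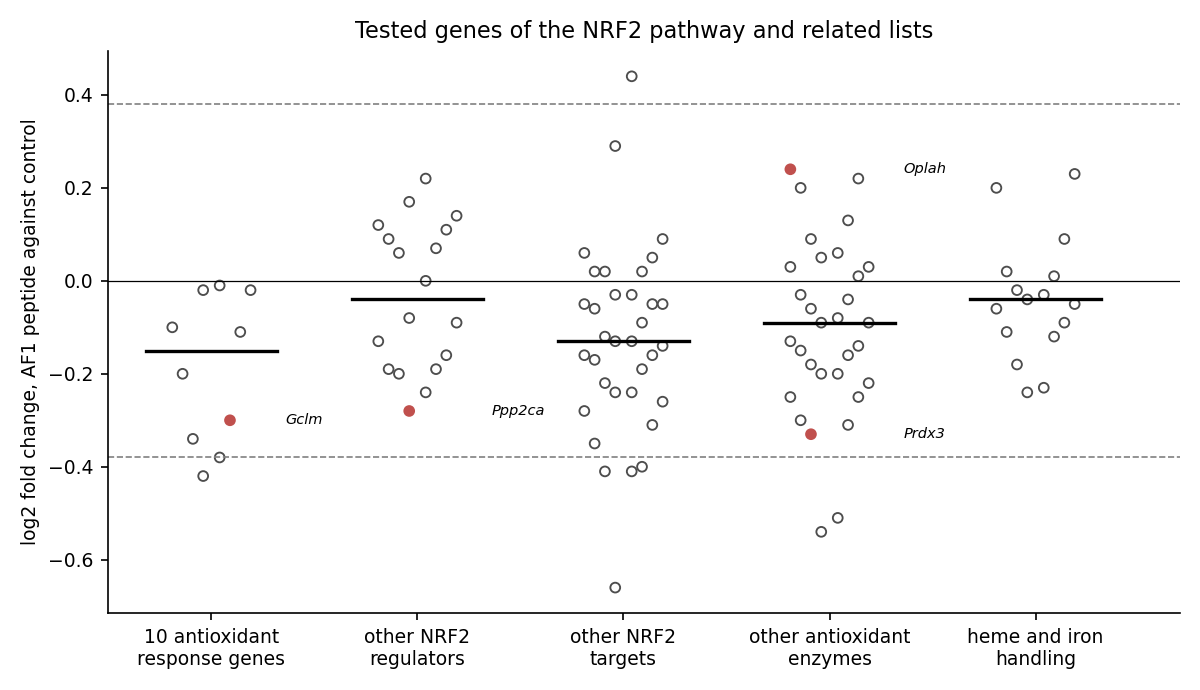
Log2 fold change of AF1 peptide against control for the 10 genes and the tested genes of the 4 related lists (other regulators, other targets, other antioxidant enzymes, heme and iron handling), without the cell type markers, 1 point per gene, with the median as a black line and 1.3-fold as dashed lines. Among these lists, filled red points have an unadjusted limma p under 0.05 (Gclm, Ppp2ca, Prdx3 and Oplah), and none of them lies beyond 1.3-fold.

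Markers of other liver cells gave the setting for these values. Among 8 stellate cell markers 1 was called, Dcn, which encodes decorin (1771 ± 256 against 1342 ± 303, log2 fold change -0.42, limma unadjusted p = 0.0388). With all 8 mice no other marker outside the macrophage list was called. Without AF1 peptide replicate 1, Dcn was still called lower (-0.43), Acta2, the smooth muscle actin of activated stellate cells, was called higher (0.73, limma unadjusted p = 0.0261), and the median of the 8 went from 0.05 to 0.22. Of 8 sinusoidal endothelial markers 6 had a fold change below 0, and Stab1, a scavenger receptor of these cells, had groups that did not overlap (2532 ± 147 against 3102 ± 469, log2 fold change 0.28, limma unadjusted p = 0.0313). Leaving out AF1 peptide replicate 1 left 4 of the 8 endothelial markers below 0 and turned their median from -0.09 to 0.05. The median log2 fold change was -0.09 for 9 hepatocyte markers, -0.23 for 5 tested red blood cell markers, 0.05 for 5 tested biliary markers and -0.18 for 7 tested lymphocyte markers. The same medians without that mouse were -0.11 for hepatocyte markers, -0.08 for 6 tested red blood cell markers, 0.28 for biliary markers and -0.06 for 6 tested lymphocyte markers. The mitochondrial share of reads was 22.38% to 34.32% in control livers, 20.81% in AF1 peptide replicate 1 and 34.28% to 37.78% in the other AF1 peptide livers. The part of these differences in the values of the NRF2 genes was not tested.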

How the data were processed

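Livers of 4 control and 4 AF1 peptide treated db/db mice were measured by stranded mRNA-Seq, with groups and replicate numbers from the labels. Trimming (TrimGalore 0.6.7), alignment (HISAT2), sorting (SAMtools 1.17) and counting per gene (GenomicAlignments) were done by the authors. The submitters' processing notes name the build mm39. The annotation, the strand setting and the rule for reads with several matches are not given in the sources used here. The deposited values are a signal per gene, the read count divided by 1 size factor per library (0.5475 to 1.2139). Whole reads were recovered within 0.1 read for 100.0% of 172256 values.

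limma 3.58.1 (R 4.3.3, trended moderated variances) was applied to log2(normalized count + 1) of the 15989 genes whose mean was at least 10, with Benjamini-Hochberg adjustment. Fold changes are on that log2 scale, which understates the change of low genes. Alternatives used other pseudocounts, filters and scalings, edgeR 4.0.16 and DESeq2 1.42.0 on recovered reads, a replicate block and each mouse left out. The tests were checked on simulated data. Lengths and overlaps came from GENCODE M21 (GRCm38), which holds 85.9% of the table's symbols, and promoters from RefSeq GRCm38.p6. No 2 libraries of a group agreed within sampling noise (chi-square per degree of freedom 14.63 to 311.68). Intervals of limma cover the spread between mice.

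The 10 genes and the lists were chosen with earlier results of these data known. Named genes are the 10, in each other list those called or otherwise the 3 with the smallest p (markers are given mainly as counts), and the pairs with an adjusted p under 0.05 together with Gclc with Gclm and Nfe2l2 with Nqo1.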

Additional observations from a re-analysis of the deposited data

Results flagged for a closer look

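In Nqo1, control replicate 4 (849) was far below the other 3 control mice (1190, 1228 and 1257). Its distance from the nearest of these was 0.835 of the whole control range, a gap larger than Dixon's outlier test allows for 4 samples at 95%. In total 20 groups were examined in this way (10 genes in 2 groups), and 1 such flag is about what chance gives.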

How the results depend on the processing

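Hmox1, Gclc, Gclm, Txnrd1 and Srxn1 had a log2 fold change below 0 in all 12 alternatives that kept the 8 mice and in all 8 that left out 1 mouse. Nfe2l2 turned to 0.01 with edgeR (edgeR unadjusted p = 0.949) and with DESeq2 (DESeq2 unadjusted p = 0.941), and with 1 mouse left out it ranged from -0.13 to 0.17. The same ranges were -0.04 to 0.02 for Keap1, -0.23 to 0.00 for Nqo1, -0.21 to 0.02 for Cat and -0.09 to 0.05 for Sod2, so their directions rested on single mice. Gclm had an unadjusted p under 0.05 in 10 of the 12 alternatives and in 3 of the 8 with 1 mouse left out, with a range of -0.37 to -0.20.

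Of the 10 genes, 0 were called in either direction. With no fold threshold 1 was called lower (Gclm), with totals set equal 3 (Hmox1, Gclc and Gclm), and with the replicate block 1 (Hmox1, unadjusted p = 0.0154). With 1 mouse left out it was 0 to 1: Hmox1 without control replicate 1 or without AF1 peptide replicate 3. The number with an unadjusted p under 0.05, 1, became 3 with equal totals, 2 with the block, 0 without the trend, 0 with each gene's own variance, and 0 to 1 with 1 mouse left out (0 without control replicate 2, AF1 peptide replicate 1 or AF1 peptide replicate 2). Equal totals moved the median of all genes to -0.0988, and 16.8% of calls were then higher, against 48.5%. Equal totals without mitochondrial genes gave 49.4%.

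Replicate numbers stand for different mice. Deviations from the group means correlated at 0.235, 0.024, 0.216 and -0.064 for numbers 1 to 4. The numbers 1 and 3 correlated best with their own number, but the numbers 2 and 4 did not. The block was therefore not taken as a pairing. With the block, 392 genes were called lower and 341 higher.

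Over the whole table, the 304 lower and 286 higher calls became 484 and 506 with no fold threshold, 459 and 435 with no filter, and 604 and 122 with equal totals, and 197 were lower with each gene's own variance. With 1 mouse left out the calls were 172 (without control replicate 2) to 486 (without AF1 peptide replicate 1) lower and 201 to 457 higher. edgeR called 283 and 344, and DESeq2 274 and 346.

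Of the other pathway genes, 0 were called. Lower calls were 2 with no fold threshold, 1 beyond 0.3, 2 with no filter, 1 with a minimum of 10 in every mouse, 4 with equal totals, 1 without the trend, 1 with own variances and 1 with DESeq2. Higher calls were 1 with no fold threshold, no filter, the block or DESeq2. With 1 mouse left out, lower calls were 0 to 4 (4 without control replicate 4, 2 without AF1 peptide replicate 1, and 1 without control replicate 2, control replicate 3 or AF1 peptide replicate 4) and higher calls 0 to 2 (2 without AF1 peptide replicate 1 and 1 without control replicate 2). Of the marker genes, 2 were called lower and 0 higher. Lower calls were 1 with equal totals without mitochondrial genes, 1 without the trend, 0 with own variances, and 0 to 4 with 1 mouse left out (4 without AF1 peptide replicate 3, 1 without AF1 peptide replicate 1 or 2, 0 without control replicate 2 or 4). Higher calls were 1 with no fold threshold, edgeR or DESeq2, and 0 to 2 with 1 mouse left out (2 without AF1 peptide replicate 1 and 1 without AF1 peptide replicate 2). The calls with no fold threshold or beyond 0.3 for these genes were added after seeing the data. The cause of these shifts was not tested.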
